A study of Rattus norvegicus with 13 samples.

Results

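Whole rat cholangiocarcinomas were set against a fibroblastic cell line derived from such tumours and grown without other cells. The comparison took the 4 arrays labelled as tumours arising from BDEsp cells and the 4 labelled as tumour-derived fibroblastic cells grown alone, 8 of the 13 arrays of the series, and covered 14217 genes. BDEsp cells are spontaneously transformed BDE1 cholangiocytes, the lining cells of rat bile ducts, and form tumours of low-grade malignancy when placed in the bile duct. The tumours were intrahepatic cholangiocarcinomas of young adult male Fischer 344 rats, frozen at removal. The fibroblastic line is clone E4, a single clone positive for alpha smooth muscle actin, isolated from such tumours and cultured within a gel of type I collagen from rat tail. A cancer cell line from the same kind of tumour, clone H10, was also grown alone in these gels (3 arrays) and is given beside some values as the epithelial line. No gene was altered and no drug was given in any group. The labels do not say whether the 4 cultures were independent or whether the 4 tumours came from separate animals. P-values therefore reflect only how much these arrays spread.

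Cholangiocarcinoma is known for its dense, scar-like stroma. In that tissue cancer cells form glands, and cancer-associated fibroblasts lay down collagens, fibronectin, periostin and proteoglycans and can contract the matrix through smooth muscle actin. Macrophages, lymphocytes and vessels lie between them, and liver tissue borders the growth. A whole tumour therefore reports all of these cells at once, while a cultured clone reports a single cell type on an artificial matrix. In such bulk tissue, fewer cells of a type and less RNA per cell cannot be told apart.

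The arrays matched their labels in most of the defining markers but were not uniform, with Krt7 and Acta2 uneven in the line. Values are levels on the log2 scale as deposited, and differences are tumour minus fibroblastic line, so a difference of 1 is 2-fold. The epithelial genes Epcam and Cdh1 were at least 12.30 and 11.13 in the tumours and at most 4.39 and 4.35 in the line. Alb, Ptprc and Emcn, of hepatocytes, leukocytes and endothelium, reached at most 5.35, 4.53 and 4.16 in the line. The keratin gene Krt7 was less even in the line, at 8.99, 5.40, 8.23 and 4.65. Fibroblastic arrays 2 and 4 stood apart from 1 and 3, with Acta2, the smooth muscle actin gene of the label, at 9.29 and 10.29 against 12.13 and 12.04. The actin probe set at the 3' end exceeded that at the 5' end, a sign of RNA quality, by log2 values of 2.65 and 2.01 in these arrays against 1.72 and 1.05, and by 0.606 to 0.752 in the tumours. For the Gapdh probe sets this excess was 0.151, 0.27, -0.0375 and 0.146 in fibroblastic arrays 1 to 4, array 4 not exceeding array 1. In the tumours it was -0.0843 to -0.00457. Tumour 2 stood apart through hepatocyte genes, whose mean level was 5.60 there and 10.31 to 12.29 in the other tumours. The part of these features in the results was not tested, and changes without these arrays are given beside the results or among the effects of the processing.

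Tumours and line differed in most genes measured. Of 14217 genes, 8652 (60.9%) were called at a limma adjusted p under 0.05, 3888 higher in the tumours (27.3%) and 4764 lower (33.5%). At least 2-fold apart were 4343 (30.5%), with 1846 on the higher side and 2497 on the lower. The very large differences lay mostly on the tumour side: 320 called genes were at least 16-fold higher and 61 at least 16-fold lower. Each array of one group lay beyond each of the other in 8278 genes (58.2%), 3724 with the tumours higher (26.2%) and 4554 with them lower (32.0%). The median difference over all genes was -0.07, and centring each array on its median moved it to 0.12 and gave 5095 higher and 3821 lower, a split that therefore turns with the scaling. With tumour 2 as the only tumour, 3912 genes were called, 1662 higher and 2250 lower, the lone tumour being assumed to vary like the other groups.

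**Figure D1:**
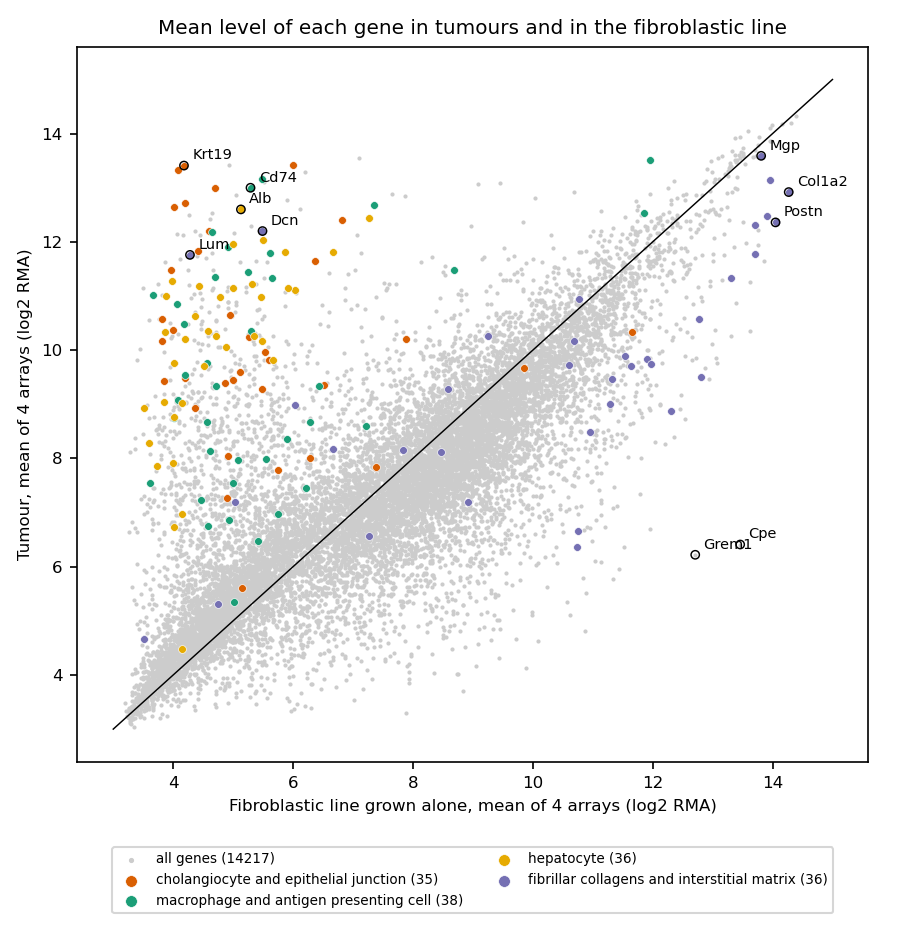
Mean level of each of 14217 genes in the 4 tumours (vertical axis, log2 RMA) against the mean in the 4 arrays of the fibroblastic line (horizontal axis, log2 RMA), with 4 gene lists coloured and named genes ringed. Epithelial, macrophage and hepatocyte genes and the proteoglycans Lum and Dcn lie far above the line of equality, Cpe and Grem1 far below it, and Mgp near it.

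Genes of the bile duct epithelium were among the furthest above the fibroblastic line. Tspan8, a tetraspanin of epithelial membranes, stood at 13.11, 13.56, 13.47 and 13.12 in the tumours and at 4.05, 3.85, 3.88 and 4.53 in the line, a difference of 9.24 (SE 0.23, limma adjusted p = 1.04e-09). Krt19, a keratin of bile ducts, stood at 13.23, 13.80, 13.68 and 12.92 against 4.17, 4.24, 4.01 and 4.29, a difference of 9.23 (SE 0.19, adjusted p = 2.63e-10). The groups were far apart for both genes, and the tumours lay near the epithelial line, whose means were 13.13 and 14.07. The adhesion molecule Epcam (8.65), the keratins Krt18 (8.53) and Krt8 (7.42), the galectin Lgals4 (8.31) and the adherens junction cadherin Cdh1 (7.52) followed. Krt7 was higher by 5.59 (SE 0.81, adjusted p = 0.000177), its groups not overlapping despite the uneven line. The shares over all genes, to be set beside this and each later list count, were 27.3% higher, 33.5% lower and 30.5% at least 2-fold apart. Among 35 genes of cholangiocytes and epithelial junctions, 32 were higher and 1 was lower in the tumours, 32 of them at least 2-fold apart, with a median difference of 4.99. The member that was lower was the tight junction scaffold Tjp1 (-1.32), 1 of its 2 probe sets having the opposite sign, and with the mean of its probe sets it was not called (-0.31, adjusted p = 0.131). Pkp2 (0.47) and Jup (-0.18) were not called, and Pkp2 was uneven in the line, at 9.54, 5.40, 8.98 and 5.63. Without fibroblastic arrays 2 and 4, 3 members of the list were lower. The epidermal growth factor receptor relative Erbb2, known for its role in this cancer, stood at 6.83, 7.79, 7.47 and 7.08 in the tumours and 6.80, 7.31, 6.96 and 7.16 in the line. These overlapped, with a difference of 0.24 (SE 0.22, adjusted p = 0.362).

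Products that epithelia secrete or display on their surface were higher as well, some of them low in the cultured cancer cells. Of 22 mucins and secreted products, 19 were higher and 1 was lower, 19 of them at least 2-fold apart, with a median of 3.53. The member that was lower was the anion exchanger Slc4a2 (-1.16). Reg3g, an antibacterial lectin of epithelia, stood at 12.52, 13.54, 11.85 and 10.65 in the tumours, near 4.07 in the fibroblastic line and between 4.34 and 7.15 in the epithelial line. It was therefore higher in all 4 tumours than in any array of both lines, with a difference from the fibroblastic line of 8.07. Lypd8, a surface protein of the gut lining (8.49), the immunoglobulin transporter Pigr (8.23) and the disulfide isomerase relative Agr2 (7.16) were high in all tumours, and their epithelial arrays ran from 8.99 to 13.75, 9.66 to 12.40 and 6.83 to 12.10. The surface mucins Muc13 (5.84) and Muc1 (4.01), mesothelin Msln (5.34) and the trefoil peptide Tff3 (3.13) were higher, as were the vesicle protein Mal2 (7.76) and the calcium-binding protein Ocm (7.96). Plac8 (7.82) and the membrane protein Ms4a8 (7.80) were also among the 15 largest differences. Osteopontin, Spp1, which both macrophages and fibroblasts can make, was at 13.25, 13.93, 13.56 and 12.64 in the tumours and 12.12, 13.49, 12.54 and 13.45 in the line. The groups overlapped, and the difference of 0.45 (SE 0.35) was not called (adjusted p = 0.285). Without fibroblastic arrays 2 and 4 it was called at 1.02 (adjusted p = 0.0285), and without arrays 1 and 3 it was -0.12.

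Matrix genes divided in direction, most being lower in the tumours and a few proteoglycans far higher. Of 36 fibrillar collagen and interstitial matrix genes, 19 were lower and 6 higher, 24 of them at least 2-fold apart, with a median of -1.37. Col1a1, a chain of type I collagen, stood at 11.35, 11.90, 12.18 and 11.69 in the tumours and 13.93, 13.43, 13.96 and 13.53 in the line, a difference of -1.94 (SE 0.19, adjusted p = 1.14e-05). Postn, which encodes periostin, stood at 11.92, 12.71, 12.48 and 12.31 against 14.09, 14.10, 13.99 and 14.01, a difference of -1.69 (SE 0.17, adjusted p = 1.2e-05). All tumours were below all fibroblastic arrays in both genes, yet far above the epithelial line (5.73 and 3.87). Col1a2 (-1.36), the matricellular gene Sparc (-1.43), fibronectin Fn1 (-1.39), tenascin Tnc (-2.08) and the type III collagen gene Col3a1 (-0.82) were lower too. Col3a1 was not called without fibroblastic arrays 2 and 4 (-0.75, adjusted p = 0.0592) or without tumours 1 and 4 (-0.77, adjusted p = 0.0554). The largest falls in the list were those of the elastic fibre gene Fbln5 (-4.36), Col11a1 (-4.10) and Col8a1 (-3.42).

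Some of the leucine-rich proteoglycans, which bind collagen fibrils, went the other way, and others did not. Lum, which encodes lumican, stood at 11.27, 12.12, 11.53 and 12.11 in the tumours and 3.57, 4.68, 3.52 and 5.34 in the fibroblastic line, a difference of 7.48 (SE 0.38, adjusted p = 1.1e-07). Dcn, which encodes decorin, stood at 11.94, 12.59, 11.76 and 12.53 against 4.34, 6.84, 4.26 and 6.53, a difference of 6.71 (SE 0.55, adjusted p = 2.95e-06). Each tumour was above each fibroblastic array, arrays 2 and 4 of the line were the higher ones in both genes, and the epithelial line was as low (3.56 and 4.32). Of the other members of this family on the list, fibromodulin Fmod was higher (2.16), while biglycan, Bgn, was lower, at 10.68, 10.19, 10.40 and 11.04 against 12.62, 13.02, 12.51 and 12.93 (-2.19, SE 0.26, adjusted p = 4.24e-05). Ogn overlapped between the groups and was not called (-1.71, SE 0.83, adjusted p = 0.0951). Without fibroblastic arrays 2 and 4 Ogn was called at -3.48 (adjusted p = 0.00017), and without arrays 1 and 3 it was 0.05. The fibril-associated collagen Col14a1 (2.93; 8.08 in the epithelial line), thrombospondin Thbs2 (1.53) and fibulin Efemp1 (1.14) were also higher. Without fibroblastic arrays 1 and 3 Thbs2 was not called (0.91, adjusted p = 0.0697). Mgp, the matrix calcification inhibitor, overlapped between the groups, at 13.14, 13.89, 13.60 and 13.71 in the tumours and 13.61, 14.04, 13.44 and 14.15 in the line (difference -0.22, SE 0.23, adjusted p = 0.412). Lum, Dcn and the others in this paragraph were named after their values were seen, apart from Mgp.

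**Figure D2:**
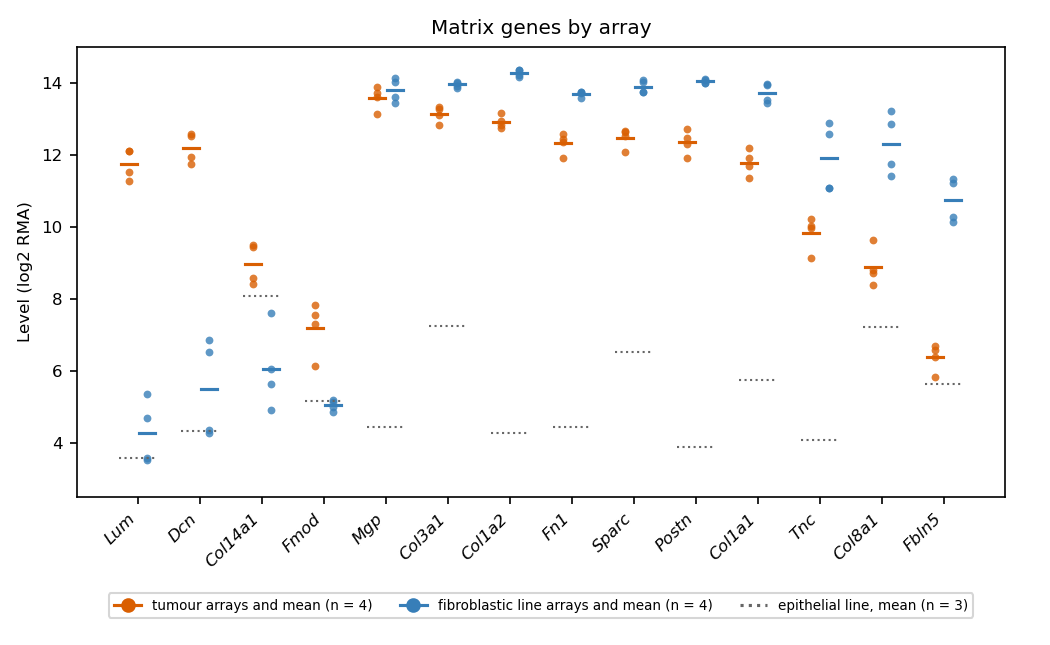
Levels (vertical axis, log2 RMA) of 14 matrix genes in each tumour and each fibroblastic array, with group means as bars and the mean of 3 epithelial arrays as a dotted line. Lum and Dcn are high only on the tumour side, Mgp overlaps, and Col1a1 and Postn are lower in all tumours than in the fibroblastic arrays while above the epithelial mean.

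Genes of the contractile myofibroblast were mostly lower in the tumours. Of 30 myofibroblast and mesenchymal genes, 22 were lower and 4 higher, 24 of them at least 2-fold apart, with a median of -1.52. Pdgfrb, a platelet-derived growth factor receptor of fibroblasts and pericytes, stood at 7.10, 6.85, 7.04 and 7.25 in the tumours and 10.23, 11.25, 10.16 and 10.77 in the line (-3.54, SE 0.28, adjusted p = 2.5e-06). The mesenchymal transcription factor Prrx1 (-4.17), the cadherin Cdh11 (-3.94, against the sign of 1 of its 3 probe sets) and vimentin Vim (-1.53) were also below the line in every tumour. Acta2 was at 10.01, 9.95, 10.40 and 10.21 in the tumours, inside the range of the uneven line, and its difference of -0.80 (SE 0.60) was not called (adjusted p = 0.267). Without fibroblastic arrays 1 and 3 that difference was 0.35 and not called, while without arrays 2 and 4 it was called at -1.94 (adjusted p = 0.00304) and without array 2 at -1.35 (adjusted p = 0.0381). The calponin Cnn1 (-3.53), tropomyosin Tpm2 (-3.28) and myosin light chain Myl9 (-2.85) fell, each being higher in fibroblastic arrays 1 and 3 than in 2 and 4. The 4 members that were higher were the TGF-beta co-receptor endoglin, Eng (2.41), which endothelium also makes, the serine protease Fap (1.92), a marker of activated fibroblasts, the surface enzyme Nt5e (1.44) and the transcription factor Tcf21 (1.03). Nt5e overlapped between the groups. It was not called without fibroblastic arrays 1 and 3 (0.85, adjusted p = 0.118) or without tumours 1 and 4 (0.77, adjusted p = 0.144). With tumour 2 as the only tumour, Nt5e was at 0.44 and Tcf21 at 0.36.

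Basement membrane chains followed the collagens in direction, except for a laminin of epithelia. Of 20 genes, 12 were lower and 3 higher, 13 of them at least 2-fold apart, with a median of -1.11. The type IV collagen chain Col4a5 (-5.22), nidogen Nid2 (-3.81) and laminin chain Lamc1 (-3.14) were lowest relative to the line. Lamb3, a chain of an epithelial laminin, stood at 8.43, 9.47, 9.35 and 8.58 in the tumours, 4.18, 4.28, 4.18 and 4.94 in the fibroblastic line and 10.52 in the epithelial line, a difference of 4.56 from the fibroblastic line. Its partner chain Lama3 (1.60) and the laminin chain Lama2 (1.03) were the other members that were higher, Lama3 not being called without fibroblastic arrays 2 and 4 (0.68, adjusted p = 0.126).

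Enzymes that cleave the matrix were split between the sides. Of 26 proteases and inhibitors, 7 were higher and 11 lower, 14 of them at least 2-fold apart, with a median of -0.13 that was 0.06 with each array centred. Over all genes 27.3% were higher, 33.5% lower and 30.5% at least 2-fold apart. Mmp12, the macrophage elastase, stood at 12.04, 12.89, 12.87 and 12.35 in the tumours and 4.45, 4.36, 4.72 and 5.03 in the line, a difference of 7.90 (SE 0.22, adjusted p = 1.92e-09). It was as low in the epithelial line (4.84), so it was near the bottom of the scale in both lines. The lysosomal cathepsin Ctss (5.82) and the epithelial matrilysin Mmp7 (4.52) were higher, the latter most in tumour 2 (11.30 against 7.92 to 9.20). Lower were the aggrecanase-type protease Adamts1 (-4.19), stromelysin Mmp11 (-4.02) and gelatinase Mmp2 (-2.84, against the sign of 1 of its 2 probe sets). Mmp11 stood at 6.84, 11.52, 7.68 and 10.51 in the line, and Mmp2 at 11.93, 13.51, 11.82 and 13.38, so both were higher in arrays 2 and 4.

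The genes furthest below the line were largely outside these lists. Cpe, a carboxypeptidase that trims prohormones, reached at most 7.08 in the tumours, with a mean of 6.41, and stood at 13.06, 13.83, 13.14 and 13.79 in the line, a difference of -7.05 (SE 0.51, adjusted p = 1.14e-06). Grem1, a secreted antagonist of bone morphogenetic proteins, stood at 5.55, 7.90, 5.96 and 5.45 against 12.63, 12.98, 12.54 and 12.70, a difference of -6.50 (SE 0.46, adjusted p = 9.97e-07). Tumour 2 was the highest tumour for Grem1, still far below the line. The guidance ligand Slit2 (-6.05), the transcription factor Foxp2 (-5.75), the collagen Col8a2 (-5.56), the photoreceptor cadherin Cdhr1 (-5.50), the kinase scaffold Akap12 (-5.48) and C1qtnf3 (-5.46) came next. Foxp2 was at 4.03 to 4.27 and Shox2 at 3.58 to 3.88 in the tumours, close to the bottom of the scale, against 9.13 to 10.62 and 7.76 to 9.45 in the line. The cartilage proteoglycan aggrecan, Acan (-5.36), the kinase Dmpk (-5.26), Col4a5 (-5.22), dysferlin Dysf (-5.15), the transcription factor Shox2 (-5.13), the membrane metalloprotease Mmp16 (-5.13) and the zinc finger gene Plagl1 (-5.05) completed the 15 largest. C1qtnf3 varied within the line (11.75, 7.76, 12.29 and 8.52), as did Akap12 (12.96, 9.83, 12.82 and 10.15).

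Genes of macrophages and other antigen presenting cells were higher in the tumours almost without exception. Of 38 measured, 37 were higher and 0 lower, 36 of them at least 2-fold apart, with a median of 4.02 and list means of 9.47 to 9.82 in the tumours against 5.47 to 5.65 in the line. Major histocompatibility complex (MHC) class II molecules hold peptides for helper T cells, and Cd74 is the invariant chain that guides them. Cd74 stood at 12.94, 12.88, 12.95 and 13.21 in the tumours and 5.44, 4.84, 5.25 and 5.62 in the line, a difference of 7.71 (SE 0.20, adjusted p = 1.04e-09). RT1-Da stood at 13.10, 13.04, 13.10 and 13.41 against 5.28, 5.64, 5.30 and 5.72 (7.68, SE 0.14, adjusted p = 1.48e-10). Tumours varied little in these genes, and the epithelial line was as low as the fibroblastic (4.81 for Cd74, 5.20 for RT1-Da). RT1-Bb stood at 11.66, 12.18, 12.28 and 12.59 against 4.57, 4.25, 4.79 and 4.93 (7.54), and RT1-Db1 at 11.70, 11.69, 11.62 and 12.20 against 5.68, 5.45, 5.01 and 6.28 (6.20, SE 0.25, adjusted p = 1.84e-08). RT1-Ba had the smallest of these differences, at 8.65, 8.35, 8.49 and 8.85 against 7.15, 6.91, 7.44 and 7.37 (1.37, SE 0.17, adjusted p = 6.89e-05). Its arrays did not overlap, but its probe set read 7.13 in the epithelial line too. These sizes depended on the probe set chosen. With the mean of probe sets the difference was smaller for RT1-Bb and larger for RT1-Ba, as given among the effects of the processing. Class II genes are related copies, and signal shared between them by the probes was not tested.

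The promoters of the 4 class II chains are shown as background, from RefSeq on GRCr8, 250 bases before to 50 after each start. They lie at chr20:4515165-4515464 on the plus strand for RT1-Da, chr20:4560113-4560412 on the minus strand for RT1-Db1, chr20:4604069-4604368 on the minus strand for RT1-Bb and chr20:4576807-4577106 on the plus strand for RT1-Ba. Capitals mark CCAAT or its reverse complement ATTGG, the letters of the Y box of class II promoters.
RT1-Da: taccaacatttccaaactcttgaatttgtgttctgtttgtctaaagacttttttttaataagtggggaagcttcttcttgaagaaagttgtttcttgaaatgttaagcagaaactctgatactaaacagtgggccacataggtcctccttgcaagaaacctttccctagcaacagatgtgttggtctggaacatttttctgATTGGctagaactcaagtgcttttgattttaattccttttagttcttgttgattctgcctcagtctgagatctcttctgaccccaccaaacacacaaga
RT1-Db1: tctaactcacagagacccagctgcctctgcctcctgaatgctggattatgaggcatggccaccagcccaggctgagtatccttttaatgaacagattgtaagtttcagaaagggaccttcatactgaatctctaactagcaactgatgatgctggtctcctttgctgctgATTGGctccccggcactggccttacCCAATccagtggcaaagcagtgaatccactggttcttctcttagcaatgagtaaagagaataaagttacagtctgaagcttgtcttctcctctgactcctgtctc
RT1-Bb: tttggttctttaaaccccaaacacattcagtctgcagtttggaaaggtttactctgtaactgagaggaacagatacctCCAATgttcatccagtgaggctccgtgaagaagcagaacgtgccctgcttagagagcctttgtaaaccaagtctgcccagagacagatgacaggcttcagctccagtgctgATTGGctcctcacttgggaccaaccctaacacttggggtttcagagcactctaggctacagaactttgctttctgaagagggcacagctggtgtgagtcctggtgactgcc
RT1-Ba: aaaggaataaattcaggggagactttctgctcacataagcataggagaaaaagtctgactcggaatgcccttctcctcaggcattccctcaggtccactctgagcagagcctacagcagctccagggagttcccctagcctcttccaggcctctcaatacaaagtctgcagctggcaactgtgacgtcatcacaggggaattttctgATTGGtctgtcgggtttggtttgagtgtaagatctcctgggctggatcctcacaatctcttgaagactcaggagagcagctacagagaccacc
A match began at position -49 from the start in RT1-Da, -80 and -55 in RT1-Db1, -172 and -61 in RT1-Bb and -43 in RT1-Ba. CCAAT on either strand was found in 37.7% of all 27457 promoters of this length, in 16 of 28 of the macrophage and antigen presenting list (57.1%), in 11 of 23 of the interferon list (47.8%) and in 13 of 29 of the hepatocyte list (44.8%). The longer run CTGATTGG, which contains ATTGG and was chosen after the windows were seen, was in all 4 class II windows, in 5 of 28 of the macrophage list (17.9%) and in 3.55% of all promoters. That longer run was read from these 4 windows. The macrophage list itself holds class II genes, so the run's share of that list is not a separate result. The composite element of ETS and IRF factors was in 2.87% of all promoters and in 4 of 28 (14.3%), 2 of 23 (8.70%) and 1 of 29 (3.45%) of the macrophage, interferon and hepatocyte lists. These are matches of letters, with no binding measured, and any part of them in the differences was not tested.

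Other members of the list included the complement component and macrophage product C1qa, the scavenger receptor Cd163 (5.00), the endosomal glycoprotein Cd68 (5.08) and the colony stimulating factor receptor Csf1r (4.11). C1qa stood at 11.70, 12.03, 11.82 and 12.08 in the tumours and 4.73 to 5.17 in the line, a 128-fold difference. Lyz2, which encodes lysozyme, was the uneven one, at 5.92, 8.11, 6.41 and 8.95 in the line against 12.34 to 12.94 in the tumours (5.34). The pan-leukocyte gene Ptprc stood at 7.30, 7.42, 6.93 and 7.31 in the tumours and 4.37 to 4.53 in the line (2.77).

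Genes of lymphocytes, granulocytes and vessels were higher too, at lower levels. Of 29 T, B and NK cell genes, 26 were higher and 0 lower, 17 of them at least 2-fold apart, with a median of 1.51. The cytotoxic T cell gene Cd8a stood at 9.71, 10.90, 10.01 and 9.87 against 4.66, 4.12, 4.65 and 4.50 (5.64, SE 0.25, adjusted p = 4.04e-08), and Cd3g (2.95) and the granzymes Gzma (3.26) and Gzmb (3.23) were also higher. With the genes of lowest mean level left out, only 11 of the lymphocyte genes were called, because fewer were tested. Of 7 neutrophil genes, 6 were higher and 0 lower, 5 of them at least 2-fold apart (median 1.39), with the calgranulins S100a9 (6.03) and S100a8 (3.82) and the granulocyte growth factor receptor Csf3r (3.24) in front. S100a9 was not limited to tissue, since it had a mean of 9.23 in the epithelial line beside 10.48 in the tumours, whereas S100a8 and Csf3r had means of 4.91 and 4.11 there. Of 13 erythrocyte and mast cell genes, 7 were higher and 0 lower, 4 of them at least 2-fold apart (median 0.56), led by the globin Hbb (3.84) and the mast cell proteases Mcpt1 (1.60) and Cpa3 (1.28).

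Of 28 endothelial genes, 19 were higher and 0 lower, 18 of them at least 2-fold apart, with a median of 1.50. The junction molecule Pecam1 stood at 7.07, 7.63, 6.90 and 7.39 in the tumours and 4.41, 4.67, 4.70 and 4.96 in the line (2.56, SE 0.20, adjusted p = 1.79e-06), and endomucin Emcn (3.28) and Icam2 (2.92) were similar. Pericyte and hepatic stellate cell genes were mixed, 9 of 21 higher and 7 lower, 11 of them at least 2-fold apart, with a median of 0.70 that was -0.07 without tumours 1 and 4. Rgs5, a G-protein regulator of pericytes, stood at 9.81, 8.61, 8.37 and 9.40 in the tumours and 3.97 to 4.64 in the line (4.83). Steap4 (4.97) and the stellate cell globin Cygb (2.77) were also higher. Phospholamban, Pln, a calcium pump regulator of muscle (-4.88), and the channel subunit Abcc9 (-3.03) were lower. The defining leukocyte and endothelial genes were thus near the bottom of the scale in the line.

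Liver genes showed the largest median of any list, and tumours that were far from uniform. All 36 hepatocyte genes measured were higher, 35 of them at least 2-fold apart, with a median of 5.32. Albumin, Alb, stood at 14.51, 7.50, 13.94 and 14.46 in the tumours and 5.06, 5.35, 4.87 and 5.26 in the line, a difference of 7.47 (SE 1.29, adjusted p = 0.000583). The fibrinogen chain Fgg stood at 14.08, 4.34, 12.76 and 13.93 against a mean near 3.98 (7.29, SE 1.76, adjusted p = 0.00454), and its fellow chain Fga (7.13) had the same pattern. The Fgg call ended without tumours 1 and 4 (4.57, adjusted p = 0.0596). Tumour 2 was thus close to the line in Fgg and above it in Alb, and it was the lowest tumour in 36 of 36 members, by a median of -6.57 from the mean of the others. Without tumours 1 and 4, 16 of the 36 were called (median 3.08), and with tumour 2 as the only tumour 7 were called (median 0.37), against a median of 6.87 without tumour 2. Those 7 were the liver transcription factor Hnf4a, the urea cycle genes Ass1 and Arg1, Alb, haptoglobin Hp, Itih3 and transthyretin Ttr. Hnf4a was even among tumours, at 11.37, 10.71, 11.39 and 11.12 against 4.70 to 5.16 (6.16, SE 0.59, adjusted p = 9.15e-06), and its mean was 6.28 in the epithelial line. Ass1 was at 9.31 in tumour 2 and at a mean of 9.12 in the epithelial line, so that level was not limited to liver. Arg1 and Alb were at 12.0 and 7.50 in tumour 2, against epithelial means of 5.79 and 4.98.

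Complement genes shared part of that pattern. Of 22, 16 were higher and 1 was lower, 17 of them at least 2-fold apart, with a median of 2.67. C3, the central component, stood at 13.78, 8.87, 12.37 and 13.79 in the tumours, 4.53, 4.67, 3.71 and 4.51 in the line and 8.54 in the epithelial line (7.85, SE 0.91, adjusted p = 3.67e-05). The C1 inhibitor Serping1 stood at 12.43, 10.57, 11.20 and 12.79 against 4.13 to 4.87 (7.34), and factor I, Cfi, at 12.45, 10.17, 10.62 and 12.68 (6.81). Tumour 2 was lowest in 14 of the 22, yet well above the line in C3, Serping1 and Cfi. With tumour 2 as the only tumour 10 were higher (median 1.00). Masp2, a protease of the lectin pathway (-1.43), was the member that was lower, but its probe sets disagree and their mean gave 1.56 (adjusted p = 0.0303). In addition the pore component C9 (5.98) was higher. The growth factor gene Igf1, which liver makes for the circulation, stood at 12.37, 10.10, 10.96 and 12.51 in the tumours and 6.22, 8.85, 5.77 and 7.34 in the line (4.44, SE 0.68, adjusted p = 0.000263), and tumour 2 was again lowest.

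**Figure D3:**
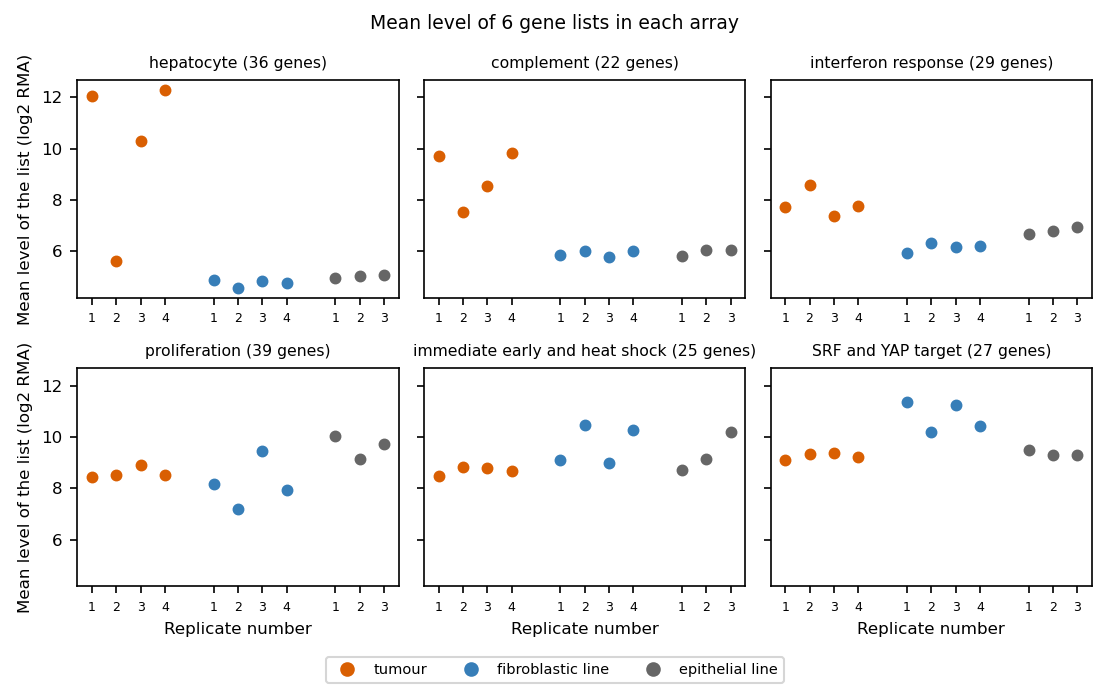
Mean level (vertical axis, log2 RMA) of the members of each of 6 gene lists in each of 4 tumours, 4 fibroblastic and 3 epithelial arrays. The hepatocyte mean of tumour 2 is 5.60 against 10.31 to 12.29 in the other tumours, and fibroblastic arrays 2 and 4 lie above 1 and 3 in immediate early genes and below them in SRF and YAP targets.

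Cytokines, chemokines and interferon-induced genes were mostly higher in the tumours. Of 40 cytokines and chemokines, 30 were higher and 3 lower, 27 of them at least 2-fold apart, with a median of 1.46. Il33, an alarmin of epithelial and stromal nuclei, stood at 13.03, 13.34, 13.61 and 13.24 in the tumours, at a mean of 6.20 in the fibroblastic line and 13.35 in the epithelial line (7.11). Interleukin 1 beta, Il1b (3.73), and the T cell attractants Cxcl11 (4.87) and Cxcl10 (3.14) were higher, and the chemokine Ccl9 (5.71) was uneven, at 5.97 in tumour 2 and 9.35 to 11.87 in the others. The members that were lower included the epithelial cytokine Tslp (-2.94), at 3.94 to 4.07 in the tumours and 6.59 to 7.21 in the line, and Il6 (-1.19), which without fibroblastic arrays 1 and 3 was at -0.87 (adjusted p = 0.0584). The lymphocyte cytokine Il15 (-1.11) was the remaining one, and Cxcl10 was not called without fibroblastic arrays 2 and 4 (2.87, adjusted p = 0.0681).

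Of 29 interferon response genes, 25 were higher and 0 lower, 21 of them at least 2-fold apart, with a median of 1.32. The membrane tether Bst2 stood at 10.04, 9.81, 9.31 and 10.08 against 5.51, 5.26, 6.05 and 5.25 (4.29), and the immunoproteasome subunit Psmb8 at 10.21, 10.19, 9.64 and 10.40 against 5.67, 6.19, 5.42 and 6.38 (4.20). Ifi44l (3.82) and the ubiquitin-like Isg15 (2.29) were higher as well. Psmb8 and Ifi44l had means of 9.41 and 7.35 in the epithelial line, beside 10.11 and 7.89 in the tumours. Bst2 and Isg15 were lower in the epithelial line, at 7.39 and 6.32, beside tumour means of 9.81 and 8.27. In 23 of these 29 genes tumour 2 had the highest level of the tumours, against 32.3% of all genes, and exceeded the mean of the other tumours by a median of 1.07. Without fibroblastic arrays 1 and 3, 16 of them were called higher.

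Ligands and receptors of growth factors pointed in both directions. Of 36 ligands, 6 were higher and 13 lower, 15 of them at least 2-fold apart (median -0.35), and centring raised the first count to 10. For ligands and receptors alike, the shares over all genes were 27.3% higher, 33.5% lower and 30.5% at least 2-fold apart. The lymphatic growth factor Vegfc stood at 7.88, 7.50, 7.15 and 7.95 in the tumours and 10.46, 10.63, 10.64 and 10.33 in the line (-2.89, SE 0.19, adjusted p = 5.47e-07). Tgfb3 (-3.04), Vegfb (-2.69) and the activin subunit Inhba (-2.16) were lower, Tgfb3 being at 13.17, 10.08, 12.81 and 9.88 in the line. Of 31 receptors, 11 were higher and 11 lower, 18 of them at least 2-fold apart, with a median of -0.28 whose sign turned without fibroblastic arrays 2 and 4 (0.15) or 1 and 3 (0.06). Met, the hepatocyte growth factor receptor, stood at 6.10, 6.44, 6.56 and 6.49 against 4.50, 3.76, 4.50 and 4.37 (2.12, SE 0.21, adjusted p = 1.27e-05). The chemokine receptor Cxcr4 (3.97), the endothelial receptor Kdr (3.00) and Erbb3 (1.56) were higher. The collagen receptor Ddr2 (-3.67) and the kinase Axl (-2.83) were lower in every tumour than in the line. Pdgfra stood at 8.04, 7.76, 7.49 and 8.39 against 7.72, 10.28, 8.67 and 9.92, groups that overlap, and was called by a narrow margin (-1.22, adjusted p = 0.0475). That call ended under most alternatives, such as leaving out tumour 3 (-1.08, adjusted p = 0.112) or fibroblastic arrays 2 and 4 (-0.27, adjusted p = 0.502).

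Targets of the actin-responsive regulators SRF and YAP were lower in the tumours, and immediate early genes were uneven in the line. Of 27 SRF and YAP targets, 18 were lower and 0 higher, 16 of them at least 2-fold apart, with a median of -1.59. The secreted protein gene Ccn1 stood at 8.24, 9.07, 9.10 and 8.53 against 12.66, 12.79, 12.31 and 12.39 (-3.81, SE 0.34, adjusted p = 6.03e-06), and the focal adhesion gene Vcl (-3.53), Fhl1 (-3.48, but not called at -1.25 with the mean of its probe sets, adjusted p = 0.0627), Ccn2 (-1.81) and the myosin Myh9 (-2.05) fell with it. The list mean was 9.10 to 9.39 in the tumours and 11.35, 10.19, 11.26 and 10.44 in the line. Of 25 immediate early and heat shock genes, 9 were lower and 1 was higher, 9 of them at least 2-fold apart (median -0.57). Over all genes 33.5% were lower, 27.3% higher and 30.5% at least 2-fold apart. Fosb, a subunit of the AP-1 factor, stood at 4.47, 4.63, 4.45 and 4.50 in the tumours and 6.50, 11.51, 6.26 and 11.19 in the line (-4.35, SE 1.23, adjusted p = 0.0105), so most of its difference lay in fibroblastic arrays 2 and 4. Without these its call ended (-1.87, adjusted p = 0.0712), 6 of the list were lower and 5 higher, and without arrays 1 and 3, 14 were lower. The nuclear receptors Nr4a1 (-3.96) and Nr4a2 (-3.17) and the zinc finger factor Egr1 (-2.95) were lower, Nr4a1 losing its call without arrays 2 and 4 (-2.34, adjusted p = 0.123). Without those arrays Nr4a2 was at -1.41 and Egr1 at -1.81, Egr1 being at 13.10 and 12.77 in arrays 2 and 4 and 10.46 and 10.84 in arrays 1 and 3. Myc, the growth regulator and the member that was higher, stood at 9.88, 10.49, 10.41 and 10.02 against 7.50, 7.49, 8.19 and 7.59 (2.51, SE 0.26, adjusted p = 1.5e-05).

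Genes of the cell cycle gave few calls. Of 39 proliferation genes, 4 were higher and 2 lower, 4 of them at least 2-fold apart, with a median of 0.36. The proliferation antigen gene Mki67 stood at 8.44, 8.61, 9.28 and 8.23 in the tumours and 8.70, 7.77, 10.22 and 8.72 in the line, overlapping (-0.21, SE 0.45, adjusted p = 0.703). Cyclin A, Ccna2 (1.93, adjusted p = 0.024), survivin Birc5 (1.72), the topoisomerase Top2a (1.47, adjusted p = 0.0319) and the replication clamp Pcna (0.86) were higher, and cyclin E, Ccne1 (-1.12), and the replication helicase subunit Mcm2 (-0.55) lower. Mcm2 was called by a narrow margin (adjusted p = 0.0415) and not with each array centred (-0.37, adjusted p = 0.145) or without tumour 1 (-0.44, adjusted p = 0.116). The calls of Ccna2 and Top2a each ended when 1 of several arrays was left out, for instance without tumour 3 (1.81, adjusted p = 0.0578, and 1.35, adjusted p = 0.0763). Fibroblastic array 3 was the highest of the line in 39 of 39 and array 2 the lowest in 35, while tumour 3 was the highest tumour in 35. Without fibroblastic arrays 1 and 3, 23 of the list were higher, and without arrays 2 and 4 the counts were 2 higher and 5 lower. With each array centred 12 were higher.

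Metabolic lists mixed directions. Of 33 hypoxia and glycolysis genes, 13 were higher and 6 lower, 10 of them at least 2-fold apart (median 0.46). Ndrg1, a stress-induced gene of differentiated epithelia, stood at 11.50, 12.14, 12.22 and 11.30 in the tumours and 7.97, 7.50, 6.30 and 6.79 in the line (4.65), and the oxygen sensor Egln3 (3.32) and the stress gene Ddit4 (2.48) were higher. Ndrg1, Egln3 and Ddit4 had means of 12.01, 9.76 and 9.53 in the epithelial line, beside 11.79, 9.07 and 9.82 in the tumours. Eno2, the neuronal-type enolase, was lower in the tumours, at 5.97 to 6.23 against 10.52 to 11.25 (-4.93), as was the neuronal-type glucose transporter Slc2a3 (-3.06, 1 of its 2 probe sets having the opposite sign). Of 21 cholesterol biosynthesis genes, 11 were higher and 2 lower, 11 of them at least 2-fold apart (median 0.85), and Idi1 (2.12) stood at 10.48, 7.24, 10.05 and 7.47 in the line against 10.69 to 11.20 in the tumours. Lbr (2.71) and Dhcr7 (1.54), reductases of the last steps, were higher, and Hsd17b7 (-1.40) and Lss (-1.16) lower. Lss was not called with the mean of its probe sets (-0.54, adjusted p = 0.0573). Without fibroblastic arrays 2 and 4, 6 were higher and 5 lower, and without tumours 1 and 4, 5 were higher. Of 23 NRF2-linked detoxification genes, 14 were higher and 7 lower, 16 of them at least 2-fold apart (median 0.78). Gpx2, a glutathione peroxidase of epithelia, stood at 12.04, 12.59, 12.29 and 11.61 against 4.63, 4.46, 4.44 and 4.30 (7.68), and Aldh1a1 (3.92) and Akr7a3 (3.60) were higher, while the quinone reductase Nqo1 was lower (-2.74).

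Stress and respiratory genes were close to balance. The shares over all genes were 27.3% higher, 33.5% lower and 30.5% at least 2-fold apart. Of 30 genes induced by unfolded proteins or amino acid shortage, 6 were higher and 10 lower, 10 of them at least 2-fold apart, with a median of -0.05 that was 0.14 with centring. The chaperones Calr (1.10) and Hspa5 (0.91) were higher, and the stress factor gene Ddit3 was lower, at 7.27 to 7.89 against 9.68 to 10.26 (-2.25). The lipoprotein receptor Vldlr (-3.08) and the stress regulator Nupr1 (-1.80) were lower as well. Of 29 oxidative phosphorylation genes, 8 were higher and 9 lower, 1 of them at least 2-fold apart, with a median of 0.02, and the complex I subunit Ndufa2 (-1.16) was the one past 2-fold, ahead of Ndufs3 (-0.90) and Ndufa5 (-0.90).

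**Figure D4:**
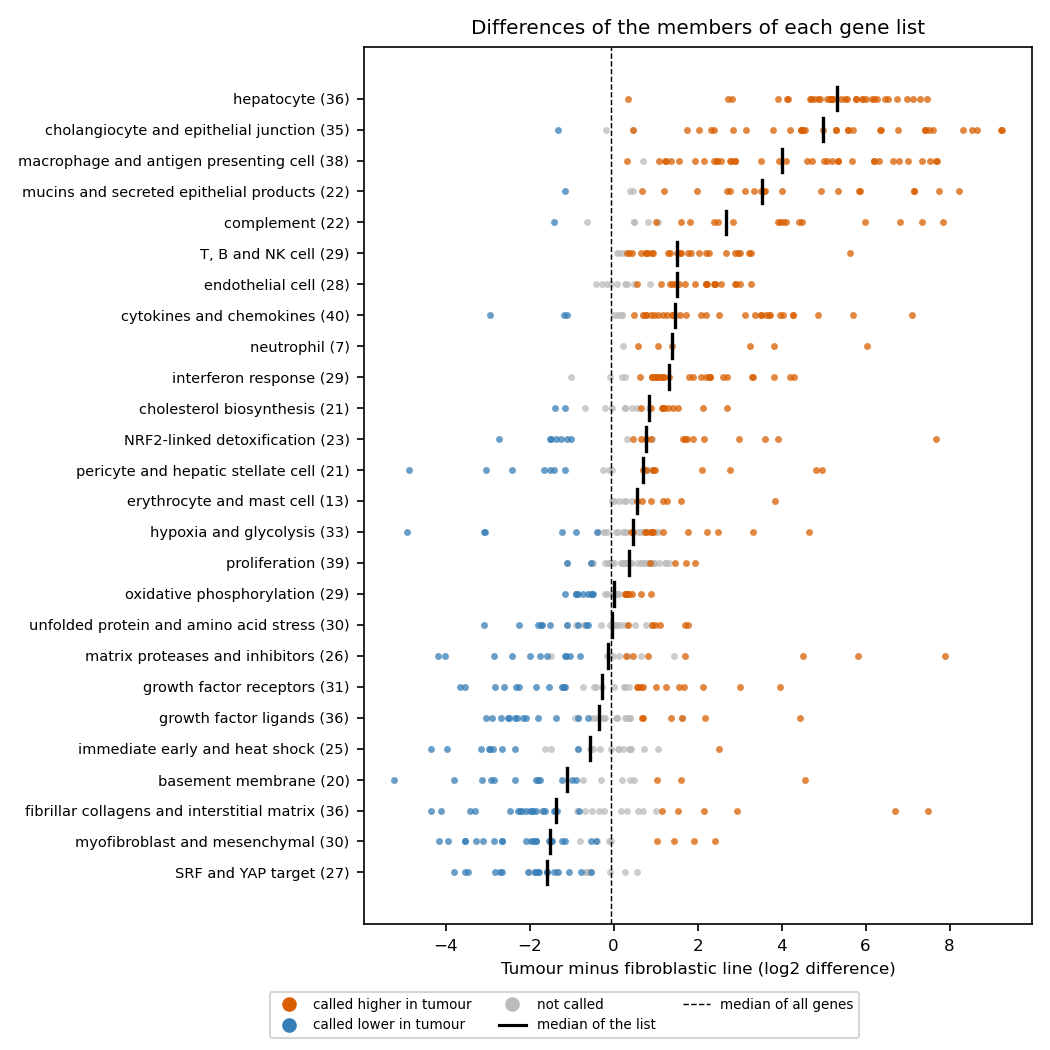
Log2 difference, tumour minus fibroblastic line (horizontal axis), of each measured member of 26 gene lists, ordered by median, with the number measured in brackets; colour gives the call and the bar the list's median. Hepatocyte, epithelial and macrophage lists lie furthest right (medians 5.32, 4.99 and 4.02), and SRF and YAP targets and myofibroblast genes furthest left (-1.59 and -1.52).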

How the data were processed

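RNA isolated with Trizol was labelled with biotin and hybridized to Affymetrix rat arrays, per the labels. The deposited values were computed by the authors with RMA, per the submitters' processing notes. The sources used here do not give its version or which arrays were normalized as a set. The deposited values were taken as log2 from their range, 2.94 to 14.69, and used as they are. After 57 controls were removed, 20826 of the 31099 probe sets named 1 gene, 436 several and 9780 none. Each of 14217 genes was represented by its probe set with the highest mean over 13 arrays, a choice for the 4525 genes with several.

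Differences were fitted with limma 3.58.1 (R 4.3.3) on 11 arrays, tumours and both lines grown alone, with moderated two-sided tests, no trend, and Benjamini-Hochberg adjustment over all genes. Tested on simulated data of this comparison, with 14217 genes, 64 of 100 shifts of 1 log2 unit and 92 of 100 shifts of 2 units were recovered, with 6 false calls. The simulation shifted far fewer genes than were called here and let each array vary independently. Its recovery and false calls therefore need not hold for the real arrays. Arrays have no counting depth, so their number limits precision. Lists are described by counts and medians, with no set test. Of 818 list entries, 736 matched a measured gene. The comparison and its lists were chosen with earlier results of these data known.

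Genes were named by rule: the 15 largest differences each way among called genes without overlap, the 3 leading called members of each list, and a standing set of markers. Further list members were named after their values were seen. The alternatives were other sets of arrays, scaling, filters, probe set choices, moderation, thresholds, array weights and the replicate block. The co-culture arrays entered only the choice of probe set and the alternative with all 13 arrays. Promoter windows came from RefSeq, GRCr8. Statmod 1.5.0 served the block, and Python 3.11.15 with numpy 2.4.6, pandas 2.3.3 and matplotlib 3.10.9 made the plots.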

Additional observations from a re-analysis of the deposited data

Results flagged for a closer look

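Single arrays stood apart from the rest of their group of 4 in 16 of the gene values tested, measured by the gap to the nearest other array as a share of the group's range. Chance gives such a gap in about 1 of 20 groups, and 394 groups were tested, so 16 is no more than that rate would give. Tumour 2 stood apart in the liver genes Alb (7.50, others 13.94 to 14.51), Fgg (4.34, others 12.76 to 14.08), Fga (4.39, others 12.21 to 13.72) and Hp (6.88, others 13.08 to 14.15). It also stood apart in the collagen gene Col11a1 (7.81, others 6.16 to 6.41) and the muscle filament gene Des (7.62, others 8.14 to 8.22).

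Among the other tumours, tumour 1 was low in Slc2a3 (5.83, others 6.38 to 6.47), and tumour 3 was low in the neutrophil gene S100a9 (9.63, others 10.69 to 10.85) and high in Nr4a2 (6.16, others 5.88 to 5.93). Tumour 4 was high in the class II gene RT1-Db1 (12.20, others 11.62 to 11.70) and low in Egr1 (8.56, others 8.91 to 8.95) and Masp2 (5.68, others 6.62 to 6.64). In the fibroblastic line, array 3 was low in Eno2 (10.52, others 11.16 to 11.25) and high in Myc (8.19, others 7.49 to 7.59). Array 4 was low in Fn1 (13.58, others 13.73 to 13.76) and high in Lamb3 (4.94, others 4.18 to 4.28).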

How the results depend on the processing

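The counts of called genes kept within 1.5 times their values under the alternatives run, with the following exceptions. With the genes of lowest mean level left out, 2418 genes were higher, since fewer were tested. With tumour 2 as the only tumour, 3912 were called, 1662 higher and 2250 lower, with fewer samples. Leaving out 1 array gave 7717 to 8703 called genes, 3445 to 3903 higher and 4216 to 4800 lower. The labels do not pair the samples by replicate number. Same-numbered arrays had correlations of 0.0115, 0.0337, 0.113 and 0.0157 in their deviations, and other pairs ran from -0.0811 to 0.0263. These values do not settle whether the numbers pair the samples. The replicate block called 8069 genes.

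Of 197 named genes, 191 were called. Of these, 143 were called with the same sign under all 26 alternatives, and a further 10, which were not tested with the genes of lowest mean level left out, under the other 25. Signs turned with the mean of probe sets for Masp2 (1.56) and Bmp6 (-0.04). Among genes not called, Mki67 turned with a further quantile normalization (0.13), without tumours 1 and 4 (0.09) and without fibroblastic arrays 1 and 3 (0.39), and with 1 array left out it ran from -0.57 to 0.24, positive without fibroblastic array 3. Mgp turned with tumour 2 as the only tumour (0.08) and without fibroblastic arrays 2 and 4 (0.06). Without fibroblastic arrays 1 and 3, a choice made after seeing the data, Acta2 was at 0.35, Spp1 at -0.12 and Ogn at 0.05, and all were called without arrays 2 and 4 (-1.94, 1.02 and -3.48). Calls were lost for Ccne1 (-0.46, adjusted p = 0.0931) without arrays 1 and 3 and for Masp2 (-0.88, adjusted p = 0.0934) without arrays 2 and 4. Called differences that moved by over 1.5 times without arrays 2 and 4 were those of Mmp11 (-2.14), Idi1 (0.67), Dhcr7 (0.97), Nr4a2 (-1.41), Abcc9 (-1.34), Egr1 (-1.81), Ccne1 (-1.79) and Lss (-1.75). Without arrays 1 and 3 they were those of C1qtnf3 (-3.52), Col11a1 (-2.54), Tgfb3 (-1.54), Ccna2 (3.02), Idi1 (3.58), Fosb (-6.84), Nr4a2 (-4.92), Vldlr (-2.04), Tnc (-1.25), Cnn1 (-2.18), Fap (1.25), Lama3 (2.52), Abcc9 (-4.72), Pdgfra (-2.18), Il15 (-0.71), Lss (-0.57) and Mcam (-1.61). With the mean of probe sets they were those of Slit2 (-3.22), Cdh11 (-2.36), Lamc1 (-1.65), Mmp2 (-1.06), Kdr (1.79), RT1-Bb (3.94), RT1-Ba (2.62), Icam2 (1.72), Cdh1 (3.91), Tpm2 (-1.77), Inhba (-3.28), Hnf4a (3.91), Slc2a3 (-1.25) and Shox2, whose difference was nearer to 0. The cause of these moves and turns was not tested. With 4 arrays a group, a gene not called is not shown to be equal, and levels near the bottom of the scale cannot be told from background.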

Other observations

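Beyond the genes described, which were chosen here after their values were seen, the pericyte list held further members below the line. The adhesion molecule Mcam stood at 7.10, 7.72, 7.66 and 7.22 in the tumours and 11.04, 8.68, 10.26 and 9.40 in the line (-2.42, SE 0.41, limma adjusted p = 0.000558). The pericyte proteoglycan Cspg4 (-1.65), the muscle filament Des (-1.52), the vessel ligand Angpt1 (-1.42) and the transcription factor Hand2 (-1.16) were lower as well. Hand2 was not called without fibroblastic arrays 2 and 4 (-0.80, adjusted p = 0.0533). Angpt1 was at 3.54 to 3.82 in the tumours and 4.58 to 5.75 in the line, low in both.

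Apart from Igf1, the growth factor ligands that were higher in the tumours were modest in level. The activin and inhibin subunit Inhbb stood at 6.03 to 7.50 against 4.65, 3.76, 5.18 and 4.54 (2.18, SE 0.37, adjusted p = 0.000496), the opposite direction to Inhba. The hedgehog ligand Ihh stood at 6.73, 7.14, 6.77 and 6.43 against 4.91, 4.66, 5.45 and 5.52 (1.63), and Wnt2 at 5.93, 5.77, 5.93 and 6.37 against 4.60, 4.43, 4.60 and 4.90 (1.37). Bmp6 (0.70) and the lymphatic ligand Vegfd (0.68) completed the group, Vegfd not being called with a further quantile normalization (0.22, adjusted p = 0.339) or without fibroblastic arrays 1 and 3 (0.42, adjusted p = 0.0642). The mean of its probe sets put Bmp6 at -0.04.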
